A study of Homo sapiens with 3 samples.

Results

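Mitochondrial fatty acid oxidation was followed through 10 enzymes in HT29, an epithelial cell line from a human colorectal cancer. The genes were CPT1A, CPT2, ACADVL, ACADM, ACADS, HADHA, HADHB, ECHS1, HADH and ACAA2, and every array probe annotated to one of these symbols was taken. All 10 were on the array, through 12 of 24460 gene probes, and they are 10 of the 18639 named genes measured. Cells grown in low-glucose medium with 5% serum were given DMSO, the solvent control, or a linderapyrone derivative at 5 µM or at 20 µM for 24 h. Total RNA of each culture was read on 1 single-colour array, so there were 3 arrays in all and 1 per group. The doses in the sample titles are written in mM, those in the treatment labels in µM, and µM was used.

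Long-chain fatty acids enter mitochondria as carnitine esters, which the carnitine palmitoyltransferases make at the outer membrane and take apart again at the inner membrane. Inside, each turn of beta-oxidation shortens the acyl-CoA through a dehydrogenation, a hydration, another dehydrogenation and a thiolytic cleavage that releases acetyl-CoA. Membrane-bound enzymes handle the long chains and soluble enzymes of the matrix the shorter ones, and the electrons pass to the respiratory chain. Colonocytes are known for using short-chain fatty acids, butyrate above all, as a fuel.

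HADHA and HADHB, whose values parted at 20 µM, encode the alpha and beta subunits of the same enzyme, the mitochondrial trifunctional protein, and lie head to head on chromosome 2. In RefSeq (GRCh38.p14) their start sites are 307 bases apart, and the 300-base windows around them, from chr2:26244583-26244882 on the minus strand and chr2:26244689-26244988 on the plus strand, share 194 bases. Both windows are shown 5′ to 3′ on the strand of their gene because the different values of these genes are set against the stretch that their promoter windows share. Capitals mark the 194 shared bases, which are the reverse complement of each other, and lower case the rest.
HADHA: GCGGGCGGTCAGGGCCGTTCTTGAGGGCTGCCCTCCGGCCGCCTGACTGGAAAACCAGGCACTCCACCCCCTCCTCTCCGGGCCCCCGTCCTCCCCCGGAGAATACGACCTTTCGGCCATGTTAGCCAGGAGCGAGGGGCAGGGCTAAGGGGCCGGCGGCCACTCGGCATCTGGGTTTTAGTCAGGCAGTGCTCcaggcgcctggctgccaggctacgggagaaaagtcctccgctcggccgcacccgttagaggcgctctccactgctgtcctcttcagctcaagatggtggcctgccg
HADHB: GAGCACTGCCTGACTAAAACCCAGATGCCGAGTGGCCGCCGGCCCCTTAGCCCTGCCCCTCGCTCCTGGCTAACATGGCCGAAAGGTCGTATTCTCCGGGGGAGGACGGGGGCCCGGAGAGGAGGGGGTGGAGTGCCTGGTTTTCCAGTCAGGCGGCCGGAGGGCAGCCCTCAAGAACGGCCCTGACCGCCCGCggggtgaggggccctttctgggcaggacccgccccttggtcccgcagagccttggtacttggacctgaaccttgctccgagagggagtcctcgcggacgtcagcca

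The shared stretch held 1 match to the GC box GGGCGG, counted on both strands, a motif found in 45.0% of the 35116 RefSeq promoter windows of the same length. All 10 genes had a window, and 7 of these held it. CCAAT was in 1 of the 10, that of HADH, against 34.6% of all windows. The letters AGGTCA, a nuclear receptor half-site, and TGACNNNGC, the core of the antioxidant response element, were in 0 of the 10 windows, against 13.8% and 13.3% of all windows. The longer motifs that contain AGGTCA, the estrogen-related receptor motif TCAAGGTCA and the direct repeat of AGGTCA spaced by 1 base, bound by PPAR receptors, were then in 0 as well, against 0.353% and 0.0228% of all windows. These counts describe the letters of short windows and not the binding of any factor.

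All 12 probes were detected on the 3 arrays, whose thresholds were 82.5 in DMSO, 79.4 with 5 µM and 80.2 with 20 µM, against median signals of 117, 107 and 110 over all gene probes. Detection was common: it held for 86.17% of all gene probes in DMSO, 85.56% with 5 µM and 85.65% with 20 µM. Of 9 colon epithelial markers on the array 9 were detected everywhere, with signals in DMSO between 92.6 for CDX2 and 56140 for KRT18, and so near the threshold for CDX2. Markers of other tissues were detected too: 6 of 6 of muscle, with signals in DMSO up to 438 for DES, 5 of 7 of liver, up to 102 for TAT, 3 of 5 of adipocytes, up to 180 for PLIN1, and 3 of 7 of fibroblasts, blood and endothelium, up to 148 for PDGFRB. With 1 array per group the spread between cultures was not measured and no test was possible, and fewer cells and less RNA per cell cannot be told apart. The technical spread came from 689 genes with a pair of probes, both at least as bright on average as the dimmest member. A single log2 ratio had an SD of 0.16 for 20 µM against DMSO, 0.14 for 5 µM against DMSO and 0.13 for 20 against 5 µM. The probes of a pair were read on the same arrays, so this SD leaves out error that a whole array shares, such as that of scaling. Log2 ratios are of background-corrected, quantile-normalized signal plus an offset of 50, and understate differences of dim genes.

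**Figure D1:**
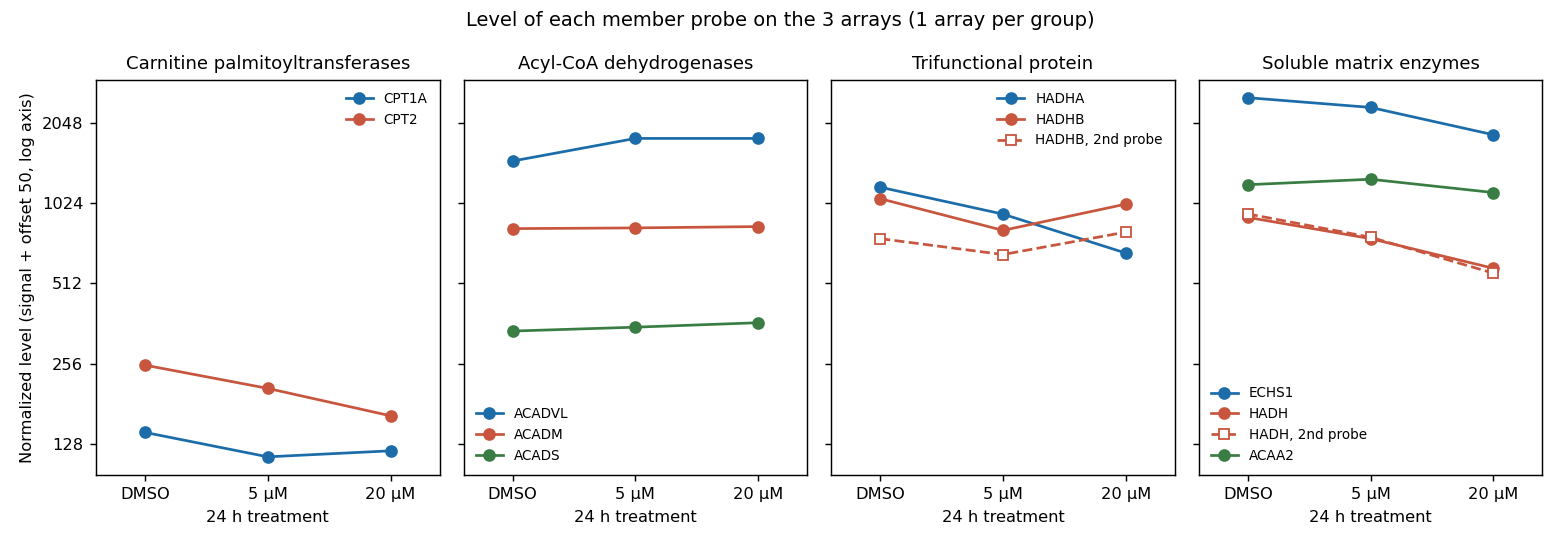
Normalized level (corrected signal plus an offset of 50, log axis) of the 12 probes on the DMSO, 5 µM and 20 µM arrays, in 4 panels by role; each point is 1 array, and open squares with dashed lines are the other probe of HADHB and HADH. HADHA and both HADH probes step down over the doses, whereas both HADHB probes are lowest at 5 µM.

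At 20 µM against DMSO the enzymes did not move as a block. HADHA was 1.77-fold lower at 20 µM, HADH 1.55-fold lower, CPT2 1.55-fold lower and ECHS1 1.38-fold lower, while the acyl-CoA dehydrogenases ACADVL, ACADM and ACADS stood slightly above their DMSO level (with arrays scaled to a common median, ACADM stood at -0.080). Of the 10 genes, 7 had a log2 ratio below 0, 4 were at least 1.3-fold lower, 0 reached 1.3-fold above DMSO and 0 differed 2-fold. A fold of 1.3 lies beyond 2 technical SDs, which leave out error that a whole array shares. Of all 16062 genes detected on both arrays, 47.1% were below 0, 5.45% at least 1.3-fold lower, 0.324% at least 2-fold lower and 4.63% higher by 1.3-fold or more. Among the 7436 genes at least as bright on average as the dimmest member, 10.3% were at least 1.3-fold lower. The median log2 ratio of the 10 genes was -0.16, with a range of -0.82 to 0.28, and that of all genes 0.0071. The members' median was -0.28 in the authors' values, -0.25 under median scaling and -0.097 over the 9 genes with signals of at least 2 times the detection threshold.

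Spot signals below are as scanned, on arrays that differed in brightness, so a log2 ratio after normalization need not have the sign of the raw difference. The authors' values are linear intensities with the arrays at a common median. The carnitine palmitoyltransferases come first in the pathway. CPT2, at the inner membrane, hands the acyl group back to coenzyme A; its spot signal was 306 in DMSO, 213 with 5 µM and 185 with 20 µM, and the authors' scaled value was 107, 79.0 and 57.1. It thus stepped down at each dose in both sets of values. Its log2 ratio was -0.63 for 20 µM against DMSO, the 234th lowest of all genes, -0.29 for 5 µM against DMSO and -0.34 for 20 against 5 µM. CPT1A, the form of the outer transferase typical of liver and most other tissues and the step that malonyl-CoA inhibits, had signals of 180, 132 and 144 in the same order and authors' values of 47.2, 31.7 and 35.2. It was lower at both doses than in DMSO, with log2 ratios of -0.23 at 20 µM and -0.30 at 5 µM, and the doses differed by 0.076, less than 1 technical SD. CPT1A was the dimmest member, so the offset weighed most on it: in the authors' values its log2 ratio was -0.42 at 20 µM, past 1.3-fold, and -0.57 at 5 µM.

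The acyl-CoA dehydrogenases, which take the first electrons from very long, medium and short chains, were the 3 genes with ratios above 0 at 20 µM as quantile normalized. ACADVL, the very long-chain enzyme, had signals of 1723 in DMSO, 1602 with 5 µM and 1795 with 20 µM, and authors' values of 779, 885 and 915. Its normalized level was 1476, 1795 and 1795. It was the highest member in both comparisons with DMSO, at a log2 ratio of 0.28 for 20 µM and 0.28 for 5 µM. For 20 against 5 µM its ratio was 0.00 as quantile normalized, 0.11 under median scaling and 0.048 in the authors' values. ACADM, the medium-chain enzyme, had signals of 952, 762 and 859, authors' values of 414, 397 and 416, and log2 ratios of 0.026 at 20 µM and 0.0089 at 5 µM. ACADS, the short-chain enzyme, had signals of 405, 340 and 387, authors' values of 154, 152 and 165, and ratios of 0.10 and 0.048. These differences of ACADM and ACADS were smaller than 1 technical SD. The sign of ACADM at both doses, and that of ACADS at 5 µM, turned with the scaling: with arrays scaled to a common median, ACADM stood at -0.080 and ACADS at 0.0068 for 20 µM, and ACADM at -0.20, ACADS at -0.14 and ACADVL at 0.019 for 5 µM.

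The trifunctional protein carries out the remaining steps for long chains, with the hydratase and the long-chain 3-hydroxyacyl-CoA dehydrogenase on its alpha subunit, HADHA, and the thiolase on its beta subunit, HADHB. HADHA had signals of 1357 in DMSO, 850 with 5 µM and 685 with 20 µM, and authors' values of 606, 448 and 323. It was the lowest of the 10 genes at 20 µM, with a log2 ratio of -0.82, the 96th lowest of all 16062 genes, and stood at -0.34 at 5 µM and -0.49 for 20 against 5 µM. HADHB was read by a pair of probes. The brighter, AHsV10002468, had signals of 1230, 749 and 1046 and authors' values of 546, 390 and 516. The other, H200013580, had signals of 874, 613 and 815 and authors' values of 377, 311 and 393. On both probes the 5 µM array was the lowest and the 20 µM array lay, as quantile normalized, within 1 technical SD of DMSO. The log2 ratios were -0.40 and -0.20 for 5 µM against DMSO, -0.069 and 0.082 for 20 µM against DMSO, and 0.33 and 0.28 for 20 against 5 µM.

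The subunits thus lay close together at 5 µM and apart at 20 µM. For 20 µM against DMSO the log2 ratio of HADHA was lower than that of HADHB by a difference of -0.75 with the brighter HADHB probe and -0.90 with the other, and for 20 against 5 µM by -0.81 and -0.77. For 5 µM against DMSO the difference was 0.060 and -0.14. The 689 genes with a pair of probes had passed a floor of brightness set by the dimmest member, CPT1A. They were thus not matched to HADHA and HADHB, which were far brighter than CPT1A. For 20 µM against DMSO, the probes of 7 lay at least as far apart as HADHA and the brighter HADHB probe. For 20 against 5 µM those of 1 did so. HADHA had a single probe, so its own value had no second reading. Gaps of this size were not particular to this pair. Head-to-head gene pairs above the same floor, with start sites at most 500 bases apart, numbered 276, HADHA and HADHB included. Of these, 19 differed at least as much at 20 µM against DMSO, and the median absolute difference over the 276 was 0.29.

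**Figure D2:**
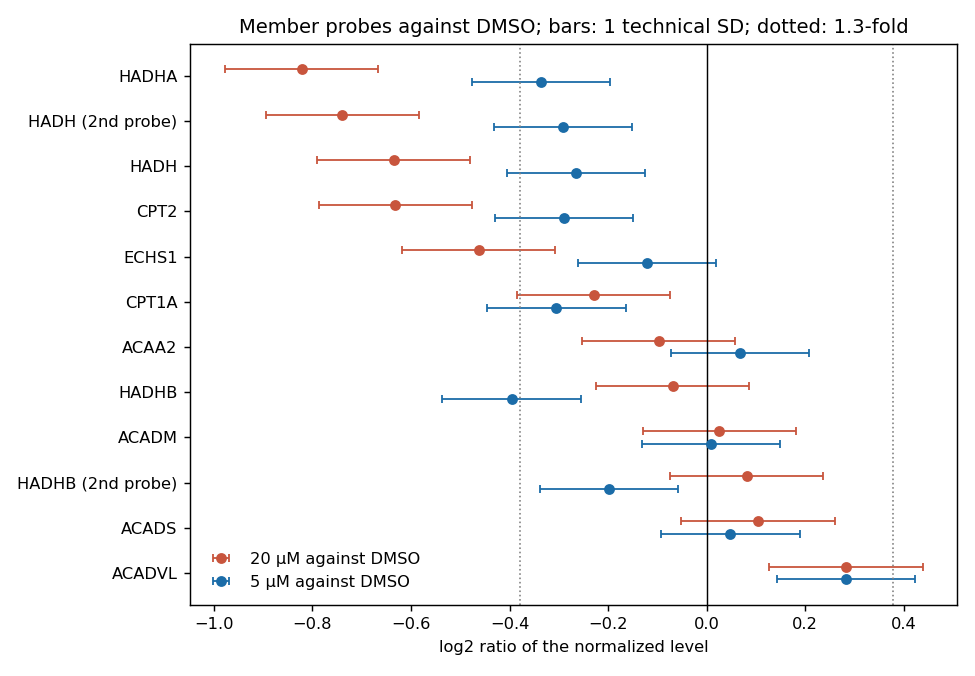
Log2 ratio of each of the 12 probes for 20 µM against DMSO (red) and 5 µM against DMSO (blue); bars are 1 technical SD estimated from genes with a pair of probes (0.16 and 0.14), and dotted lines mark 1.3-fold. HADHA, both HADH probes, CPT2 and ECHS1 lie past 1.3-fold lower at 20 µM.

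The soluble enzymes of the matrix take over once chains are short or medium. HADH, the short-chain 3-hydroxyacyl-CoA dehydrogenase, had signals of 1049 in DMSO, 700 with 5 µM and 605 with 20 µM on probe H200001595 and 1079, 707 and 582 on probe AHsV10003203. The authors' values were 459.5, 361 and 281 on the first and 474, 365 and 268 on the other. Both probes stepped down at each dose, with log2 ratios of -0.64 and -0.74 for 20 µM against DMSO, -0.27 and -0.29 for 5 µM against DMSO, and -0.37 and -0.45 for 20 against 5 µM. ECHS1, the short-chain enoyl-CoA hydratase, had signals of 2930, 2104 and 1857 and authors' values of 1352, 1176 and 947. Its log2 ratio was -0.46 for 20 µM against DMSO, while that for 5 µM, at -0.12, was smaller than 1 technical SD. ACAA2, the thiolase of the matrix, had signals of 1387, 1143 and 1141, authors' values of 620, 618 and 566, and log2 ratios of -0.097 at 20 µM and 0.068 at 5 µM, both smaller than 1 technical SD, and the ratio at 5 µM turned to -0.16 under median scaling. At 20 µM the hydratase and the dehydrogenase of the soluble set and the subunit that carries both activities for long chains were thus all at least 1.3-fold lower. Both thiolases, HADHB and ACAA2, lay within 1 technical SD of DMSO as quantile normalized. Under median scaling they stood at -0.17 and -0.21, beyond that SD though short of 1.3-fold.

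In the comparison of 5 µM with DMSO the lowest member ratio was -0.40, against -0.82 at 20 µM. HADHB and CPT1A, however, stood lower at 5 µM than at 20 µM. Of the 10 genes at 5 µM, 6 were below 0 and 1, HADHB, was at least 1.3-fold lower. Of all 16075 genes detected on both arrays, 47.9% and 0.952% were so called. Among those at least as bright on average as the dimmest member, 1.8% were at least 1.3-fold lower. The call of HADHB rested on its brighter probe, since the other stood at -0.20. None of the 10 was higher by 1.3-fold, against 1.18% of all genes. The median log2 ratio was -0.19 over the 10 genes, where it was -0.16 at 20 µM, and 0.0043 over all genes. HADHA, CPT1A, CPT2 and HADH had ratios between -0.34 and -0.27, short of 1.3-fold. Array scaling mattered most at this dose. Median scaling moved the median of the brighter genes to -0.16, against 0.0042 with quantile normalization, and gave 5 members at least 1.3-fold lower, while the share of all genes at that fold was 6.17%. The authors' values gave 4 members and 9.09% of all genes.

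For 20 against 5 µM, 5 members were below 0 and 1, HADHA, was at least 1.3-fold lower, against 50.4% and 2.79% of 16036 genes. Of the genes at least as bright on average as the dimmest member, 5.5% were at least 1.3-fold lower. Under median scaling HADHA stood at -0.37, short of that fold, and 0 members reached it, while an offset of 16 gave 3. The median was -0.083. HADH, CPT2 and ECHS1 stood at -0.37, -0.34 and -0.34, and HADHB at 0.33 was the highest member. A single DMSO array served both doses, so their ratios share its error.

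**Figure D3:**
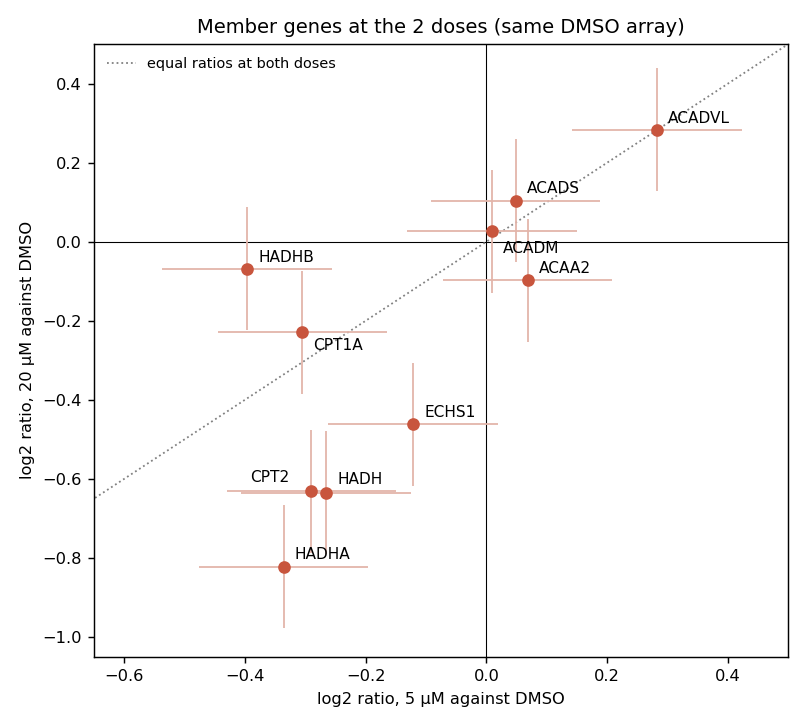
Log2 ratio of the 10 genes at 20 µM (vertical) against that at 5 µM (horizontal), both relative to the same DMSO array; bars are 1 technical SD and the dotted line marks equal ratios. HADHA, HADH, CPT2 and ECHS1 lie below the line, and HADHB, at -0.40 and -0.069, lies above it.

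The partners of the pathway were taken from lists of its other genes. Electrons leave the acyl-CoA dehydrogenases through the electron transfer flavoprotein: its subunits ETFA and ETFB and the oxidoreductase ETFDH had signals of 5410, 3599 and 192 in DMSO and log2 ratios of -0.24, -0.19 and -0.29 at 20 µM. All 3 were below 0, as were 47.1% of all genes detected on both arrays, and 0 reached 1.3-fold. Of the other 5 carnitine genes, SLC25A20, the carrier that exchanges acylcarnitine for carnitine across the inner membrane, was the 1 past 1.3-fold lower, and only just, at -0.38, with signals of 167 in DMSO, 127 with 5 µM and 124 with 20 µM. The carnitine acetyltransferase CRAT stood at 0.23, the carnitine importer SLC22A5 at -0.083, CPT1B at 0.014 and CPT1C at 0.00046, the last 3 with signals in DMSO of at most 111.

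Among 10 auxiliary enzymes 3 were below 0, 0 reached 1.3-fold, and the median was 0.036. They included ACAD8, a dehydrogenase of valine breakdown, at 0.20, and DECR1, the dienoyl-CoA reductase for unsaturated chains, at -0.15. Of 6 detected genes for fatty acid uptake and activation, ACSL5, a long-chain acyl-CoA synthetase of the intestine, was the 1 at least 1.3-fold higher, at 0.40, with signals of 1751, 1651 and 1977 over the doses. SLC27A2 stood at -0.20 and the list's median at 0.014. Of 7 acyl-CoA thioesterases, 2 were at least 1.3-fold lower, the peroxisomal ACOT8 at -0.66 and the mitochondria-associated ACOT13 at -0.47, with ACOT7 at -0.37. A dim other probe of ACOT8 gave 0.020. Of all genes detected on both arrays, 47.1% were below 0, 5.45% at least 1.3-fold lower and 4.63% at least 1.3-fold higher.

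Peroxisomes run a parallel beta-oxidation. Of 10 detected genes of that pathway, 9 were below 0 at 20 µM and 1 was at least 1.3-fold lower. Of all genes detected on both arrays, 47.1% and 5.45% were so called, and 10.3% of those at least as bright as the dimmest member were 1.3-fold lower. The 10 peroxisomal genes had a median of -0.18. The gene past 1.3-fold was ABCD3, an ATP-binding transporter of the peroxisomal membrane, at -0.46 and, at 5 µM, -0.40. The peroxisomal bifunctional enzyme EHHADH stood at -0.31, the thiolase ACAA1 at -0.30, the carnitine octanoyltransferase CROT at -0.30 and AMACR, a racemase for branched chains, at -0.25. A dim other probe of ACAA1 gave 0.019. EHHADH and CROT lay below 2 times the threshold on every array. Of 4 detected ketone body genes 3 were below 0 and 0 were 1.3-fold apart. BDH2 was the farthest from 0, at -0.34.

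CPT1 is held back by malonyl-CoA, and the AMP-activated kinase relieves that brake by inhibiting the acetyl-CoA carboxylases. In this group of 9 genes, 3 were below 0 and 1, the kinase subunit PRKAG2, was at least 1.3-fold higher, at 0.44. Of all genes detected on both arrays, 47.1% were below 0, 5.45% at least 1.3-fold lower and 4.63% at least 1.3-fold higher. MLYCD, which degrades malonyl-CoA, stood at -0.23, and the catalytic subunit PRKAA1 at 0.15. Of 12 detected transcriptional regulators 8 were below 0 and 3 at least 1.3-fold lower: PPARG, a lipid-activated nuclear receptor, at -0.55, with signals of 1624 in DMSO, 1147 with 5 µM and 987 with 20 µM, the mitochondrial transcription factor TFAM at -0.49, and RXRA, the partner of PPAR receptors, at -0.41. PPARA, the receptor best known for driving this pathway in liver, stood at 0.078, and its coactivator PPARGC1A had a signal of 85.5 in DMSO, near the threshold. Of 15 detected PPAR target genes, a list that holds ACADVL, HADHA and CPT1A, 3 were at least 1.3-fold lower and 1 was higher by that much. The median was -0.00075. The lower genes were HADHA and SLC25A20, both given above, and VNN1. The higher gene was PLIN2, the coat protein of lipid droplets, at 0.95, with signals of 384, 361 and 644, whereas VNN1 stood at -0.45. PDK4, a common readout of PPAR activity, stood at -0.023, with a dim signal of 132 in DMSO. It lay below 2 times the threshold on every array, as did ANGPTL4, FABP1, CIDEC, FGF21, UCP2 and UCP3 of this list. The offset understates differences of such genes, and with them the list's median.

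**Figure D4:**
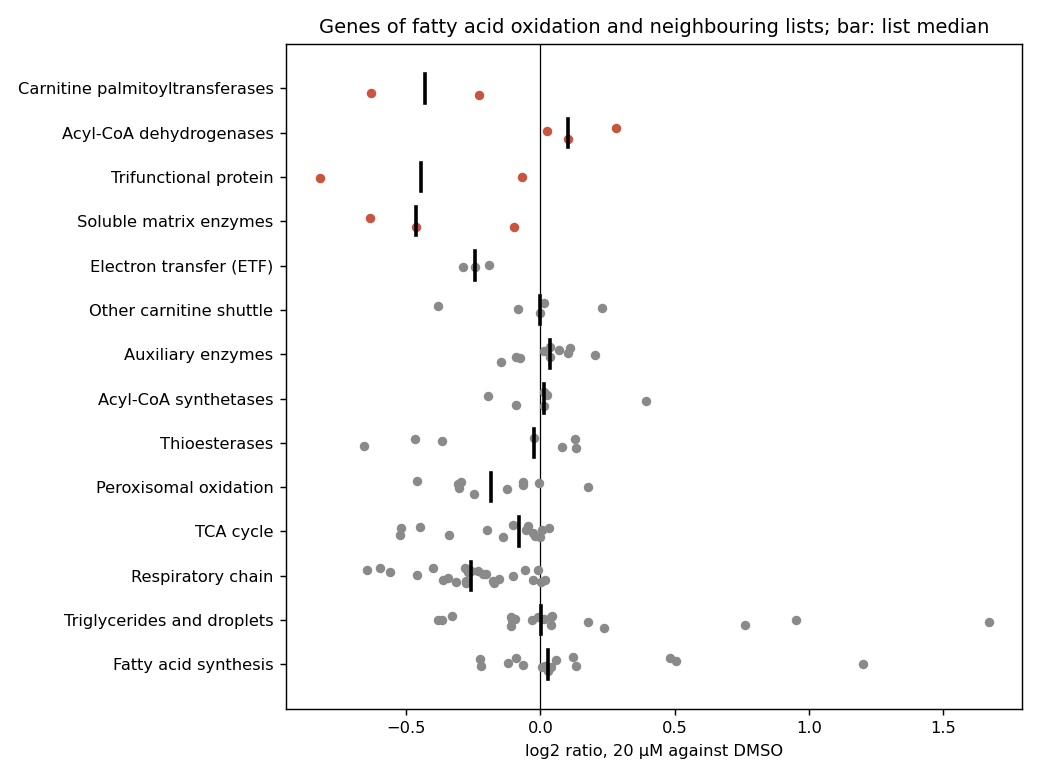
Log2 ratio for 20 µM against DMSO of each detected gene in 14 lists, 1 point per gene; red points are the 10 enzymes by role, grey points other lists, and black bars list medians. The acyl-CoA dehydrogenases lie above 0 as quantile normalized (ACADM at -0.080 under median scaling), and most respiratory chain genes below it.

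Set beside neighbouring pathways at 20 µM, the 10 enzymes had a median of -0.16, the 25 respiratory chain and ATP synthase subunits one of -0.26 with 5 at least 1.3-fold lower, and the 14 detected genes of the tricarboxylic acid cycle one of -0.079 with 3 at least 1.3-fold lower. Below 0 were 7 of the 10, 23 of the 25 and 12 of the 14, against 47.1% of all genes detected on both arrays. Of all genes, 5.45% were at least 1.3-fold lower and 4.63% at least 1.3-fold higher. Among those at least as bright as the dimmest member, 10.3% were at least 1.3-fold lower. The 3 farthest from 0 in each of these lists were NDUFA2 of complex I at -0.65, ATP5F1A at -0.60 and ATP5MC1 at -0.56, and isocitrate dehydrogenase IDH2 at -0.52 and the succinate dehydrogenase subunits SDHA at -0.52 and SDHC at -0.45. Lower ratios were not a feature of all mitochondrial genes. Of 14 genes for import and folding of mitochondrial proteins, 6 were below 0 and 3 at least 1.3-fold higher, namely TIMM17A at 0.73, the protease LONP1 at 0.68 and the chaperone HSPA9 at 0.62, and the median was 0.087. The lists of fatty acid synthesis, with a median of 0.029 over 15 genes, and of triglyceride synthesis and lipid droplets, with 0.0032 over 18, had their largest ratios above 0, namely FADS3 at 1.20, ELOVL7 at 0.51 and ELOVL1 at 0.48, and GPAT3 at 1.67, PLIN2 at 0.95 and the phosphatidate phosphatase LPIN2 at 0.76. At 5 µM the medians were -0.19 for the 10 enzymes, -0.12 for the respiratory chain, with 0 genes at least 1.3-fold lower, -0.082 for the tricarboxylic acid cycle, -0.063 for the peroxisomal genes and 0.060 for import and folding. Median scaling put the median of all brighter genes at -0.082 for 20 µM, against 0.0097 as quantile normalized, and the counts of these lists were not recomputed under it. The lists also differed in brightness, and the offset draws the ratios of dim genes towards 0. Genes below 2 times the threshold on every array included FADS1, FADS2, SCD5, ACSS2, SREBF1 and MLXIPL of fatty acid synthesis. Others were GPAM, AGPAT1, LPIN1, LPIN3, DGAT2 and ABHD5 of the triglyceride list, and NDUFS1 and CYCS of the respiratory chain. None of the differences between lists was tested.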

How the data were processed

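Each array's deposited scanner file holds, per the file headers, the median intensity of every spot on a linear scale and a background median, from scans at 3 gains. The authors' deposited value table holds a linear intensity per probe with a median of 25 on each array; set against the scanner signal it met 0 at 80.0 in DMSO, 77.3 at 5 µM and 77.6 at 20 µM, near the blank spots. Its derivation and the extraction software are not given in the sources used here.

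Spot signals were corrected with normexp (limma 3.58.1, R 4.3.3; offset 50; all spots), taken to log2 and quantile normalized over 24460 gene probes. These steps were run on simulated arrays in which few probes changed, in equal numbers up and down. That simulation could not test a shift of most genes. The scanner background column was an alternative, since it followed the spot's own signal (Spearman 0.967 across spots in DMSO). A probe was detected above the mean plus 2 SD of 480 blank and negative control spots, less the top and bottom 5%. Probe symbols came from the platform annotation, 21707 with 1 symbol, 21675 of them matched to a current record. A gene was read by its probe with most detections, then by the highest mean of log2 levels, in which the HADH probes were nearly equal. Promoter windows were those at the start of the gene record. Tables used Python 3.11.15 and pandas 2.3.3.

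Genes whose ratios are given besides the 10 were up to 5 per list with the largest ratios at 20 µM, up to 3 for neighbouring pathways, and all carnitine and electron transfer genes. Others were named for their signal: the brightest marker of each tissue list in DMSO, and genes below 2 times the threshold on every array. PDK4, PPARA, PPARGC1A and CDX2 were added after their values were seen. The members and lists were chosen with earlier results of these data known.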

Additional observations from a re-analysis of the deposited data

How the results depend on the processing

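Leaving aside the scanner's background column, HADHA, HADH, CPT2 and ECHS1 were at least 1.3-fold lower at 20 µM than in DMSO under every alternative that was run: median scaling, no background correction, an offset of 16, the authors' value table, a signal of at least 2 times the detection threshold, no detection filter, the mean over a gene's probes and, chosen after seeing the data, the other probe of HADH and HADHB. The stricter filter and the lack of a filter could not change the values of these genes, whose signals passed on every array. Probe means and the other probe could not change HADHA, CPT2 or ECHS1, each read by a single probe. The range was -0.94 to -0.80 for HADHA, -0.75 to -0.61 for HADH, -0.91 to -0.56 for CPT2 and -0.59 to -0.46 for ECHS1, and that of HADHA minus HADHB -0.90 to -0.73. The members at least 1.3-fold lower at 20 µM numbered 5 in the authors' values and 4 as reported. The share of all genes at that fold was 14.2% in the authors' values and 5.45% as reported. It was 8.57% under median scaling, 8.32% with an offset of 16, 10.0% under the stricter filter and 4.46% without background correction. The median of the 10 genes at 20 µM ranged from -0.28 to -0.097. CPT1A was the member lost under the stricter filter.

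With the background column the median ratio was 0.018 for 20 µM and 0.073 for 5 µM, HADHA turned to 0.87 at 20 µM and 0.60 for 20 against 5 µM, and CPT2 to 0.10 at 20 µM. Across 2007 genes with a pair of detected probes, the ratios of the pair correlated at -0.011 with the column and at 0.69 as reported. For 5 µM the median was -0.37 under median scaling, and the members at least 1.3-fold lower, 1 as reported, numbered 5 under median scaling, 4 in the authors' table, 2 with an offset of 16, 2 with the background column and 0 with probe means. The share of all genes at that fold was 6.17%, 9.09%, 2.14%, 6.94% and 0.840% in that order, against 0.952% as reported. For 20 against 5 µM, where it was 1, the count was 0 under median scaling, 3 with an offset of 16, 2 in the authors' table and 2 with probe means, against 1.75%, 4.12%, 7.28% and 2.61% of all genes and 2.79% as reported. The median ratio was 0.019 under median scaling. No paired analysis was possible because each group had 1 array. Signals of the members' probes other than that of CPT1A were at least 2 times the threshold.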
